A study of Mus musculus with 2 samples.

Results

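The T cell receptor signalling cascade was examined in regulatory T cells (Treg), CD4 T cells that hold immune responses in check. The cells were sorted by FACS from female mice, 6 to 8 weeks old, with spleen and lymph nodes as the source. It was represented by a list of 50 genes that runs from the CD3 chains of the receptor to the transcription factors and brakes that act downstream. Each gene was read by its brightest probe set, taking the mean of the 2 arrays, among probe sets that the platform annotation pairs with a single gene symbol. Of the 50 genes, 49 had such a probe set, out of 18193 genes on the array. The exception was the kinase Lck, for which no probe set is named in the annotation used here, so it has no value below. All 49 reached log2 5, the floor chosen here because dim values crowd together, on each array, as did 9668 genes in all.

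The data were 2 Affymetrix arrays, 1 for each genotype. The array called fl/wt held RNA from Treg of Foxp3 Cre/wtS Stat3 fl/wt mice and the array called fl/fl held RNA from Treg of Foxp3 Cre/wtS Stat3 fl/fl mice. All donors thus carried Cre at a Foxp3 allele, and they differed in having 1 or 2 loxP-flanked (floxed) alleles of Stat3, a transcription factor that relays IL-6, IL-10 and similar cytokine signals. Foxp3 is X-linked, so in a female with Cre on a single X chromosome only the Treg that use that X express Cre. The labels leave unsaid whether Cre-expressing cells were selected in the sort, how many mice each RNA came from and which exons of Stat3 are floxed. The comparison asks which transcripts differ when both Stat3 alleles rather than 1 are floxed. Since each genotype has a single array, there is no replicate error, no test was possible, and each difference below describes these 2 arrays. Differences are log2 values of fl/fl minus fl/wt.

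The labels could not be checked on the targeted gene. The 3 Stat3 probe sets above log2 5 differed by -0.083, -0.019 and -0.0083, and where they sit on the gene relative to the floxed exons is unstated, so directions rest on the labels alone. Of 7 markers of Treg and CD4 T cells, 6 were between 12.27 and 14.91 in fl/wt and between 12.21 and 14.87 in fl/fl. The exception was Foxp3 itself, whose probe set was under log2 5 in both arrays (4.09 (fl/wt) and 3.52 (fl/fl)). Transcripts of other cells were also present. Of 7 myeloid markers, 6 were above log2 5 in both arrays (Csf1r was the brightest, at 13.99 in fl/wt), with Itgam under log2 5. The log2 of their summed linear values was 15.09 (fl/wt) and 15.08 (fl/fl). Of 7 B cell markers, 4 of the 6 with a probe set were above log2 5, with a summed level of 10.75 (fl/wt) and 10.68 (fl/fl), and Cr2 and Pax5 were under log2 5. Of 4 NK markers 2 were above log2 5, with a summed level of 10.72 and 10.66, and Ncr1 was under log2 5. The CD8 T cell genes Cd8a and Cd8b1 read 8.29 and 8.54 in fl/wt, and their summed level was 9.42 in fl/wt against 9.56 in fl/fl. The plasma cell genes Xbp1, which other cells also express, and Jchain read 13.36 and 10.03 in fl/wt, with Sdc1 under log2 5 and a summed level of 13.50 and 13.52. The dendritic, red cell and platelet lists each had 1 marker above log2 5, with summed levels of 6.12 to 7.03 in fl/wt and 6.05 to 7.16 in fl/fl. CD8 T cells use the same cascade, and several members, among them Ptprc, Ptpn6, Fyn and Pik3cd, are also expressed by the other cells named, and the part of these cells in the values was not tested. In RNA of a whole cell pool, fewer cells that express a gene and less RNA per cell cannot be told apart.

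As background, the T cell receptor itself has no enzymatic activity. When it binds peptide on MHC, the kinase Lck, brought in by CD4, phosphorylates the tails of the CD3 and zeta chains, and Zap70 docks there and phosphorylates the scaffold Lat. Adaptors assembled on Lat recruit phospholipase C gamma 1, whose products open several routes: calcium and calcineurin to NFAT, protein kinase C theta to NF-kappaB, and Rasgrp1 to Ras, while phosphoinositide 3-kinase feeds Akt. Phosphatases, ubiquitin ligases, diacylglycerol kinases and small adaptors restrain each step. Treg depend on receptor signals for their suppressive function.

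Because the arrays compare Stat3 genotypes, the promoters of the members were searched for the palindromic core letters that Stat proteins bind, TTCNNNGAA, which reads the same on both strands. Promoter windows of 300 bases (250 before to 50 after the start site, RefSeq, build GRCm38.p6) were at hand for 42 of the 50 members. A match was present in 6 of the 67 windows of these members (8.96%), against 8.30% of all 32851 windows. By gene, 6 of 42 members (14.3%) had a match in any window, against 9.55% of all genes in the table; members have more windows per gene than the table as a whole. The matches are shown with up to 20 bases on either side, 5′ to 3′ on the strand of the gene, with the matching 9 letters in capitals, since these are the members whose start regions hold the letters that Stat3 could read.

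Akt2: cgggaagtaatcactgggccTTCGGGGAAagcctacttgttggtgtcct
Cd3d: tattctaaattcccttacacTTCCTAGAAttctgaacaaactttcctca
Pdpk1: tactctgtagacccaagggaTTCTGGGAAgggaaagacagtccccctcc
Ptpn22: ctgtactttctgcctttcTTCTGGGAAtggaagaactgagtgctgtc
Rasgrp1: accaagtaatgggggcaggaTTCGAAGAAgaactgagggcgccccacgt
Ubash3b: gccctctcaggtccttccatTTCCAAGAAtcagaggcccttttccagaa

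The stretches lie at chr7:27591372-27591420 on the plus strand (Akt2), chr9:44981569-44981617 plus (Cd3d), chr17:24150882-24150930 minus (Pdpk1), chr3:103860027-103860073 plus (Ptpn22), chr2:117342969-117343017 minus (Rasgrp1) and chr9:41158166-41158214 minus (Ubash3b). The Pdpk1 match begins 13 bases into the transcribed side of its start, and the other matches begin at positions -232 to -120 relative to theirs. Of the 6 genes, 4 were higher and 2 lower in fl/fl, from -0.075 (Ptpn22) to 0.066 (Akt2), with a median difference of 0.023. Among the 35 measured members whose windows held no match, 12 were higher and 23 lower, from -0.32 to 0.091, with a median of -0.022. Of all measured genes, 47.5% were higher and 52.5% lower. The signs of the genes with a match depended on the probe sets read. As the median of probe sets, Akt2 (-0.056), Rasgrp1 (-0.11) and Ubash3b (-0.047) were lower and Pdpk1 (0.066) was higher, each opposite to its brightest probe set. A match describes letters in a window, and its absence says only that these letters are not in that window.

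The cascade stood high on the array in both genotypes and differed little between them. The median member read log2 12.45 (fl/wt) and 12.43 (fl/fl), against medians of 10.18 and 10.17 over the 9773 measured genes (those reaching log2 5 in either array). Of the 49 members, 42 lay above the median mean level of those genes and 32 above their upper quartile (11.72). None of the 49 differed by 1.5-fold, where 0.645% of all measured genes did (0.246% higher and 0.399% lower). At that background, finding none says little about 49 genes. A difference of at least 0.1 was seen for 5 members, all lower in fl/fl (Grap2, Nck1, Txk, Akt1 and Csk), and for none on the higher side. Over all measured genes, 14.2% were lower and 12.6% higher by that much.

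**Figure D1:**
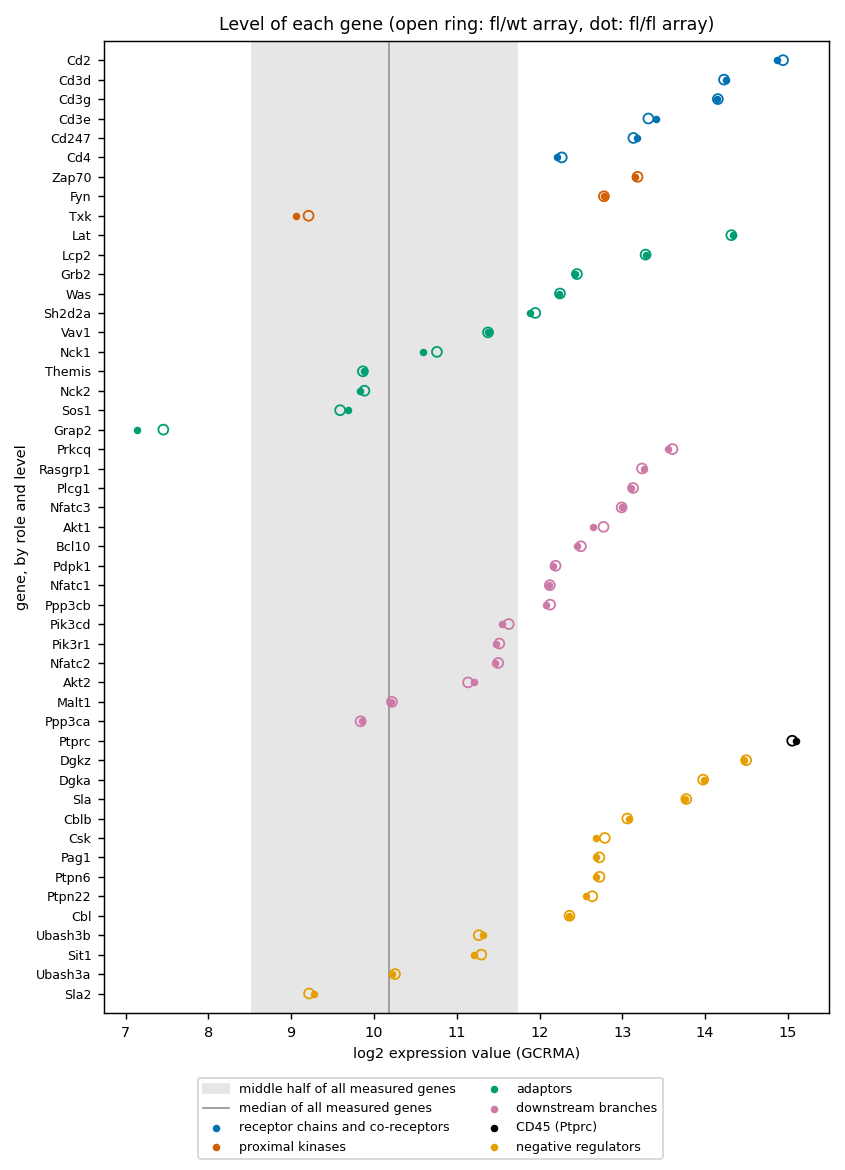
The x axis is the log2 value and each line is a gene, grouped by role and ordered by level, with a ring for the fl/wt array and a dot for the fl/fl array. Grey marks the interquartile range of all measured genes (8.53 to 11.72) and the grey line their median (10.18); 32 of the 49 genes lie to the right of the grey band, and only Grap2 lies to its left.

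Levels of different genes come from different probes, so an order of levels describes signal, not transcript number. Probe sets of the same member show how much the probes alone can move a value. For the 32 members with at least 2 probe sets above log2 5 in both arrays, the brightest and the dimmest lay a median of 3.64 apart on the log2 scale, and 7.03 apart for Akt1. The interquartile range of the members' own mean levels was 1.88. The order of members was nonetheless the same in both arrays for 34 of 49. Each array reads the same probes, and the part of this in the shared order was not tested. A further 11 moved by 1 place and 4 by 2 or 3 places.

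The CD3 and zeta chains of the receptor and the adhesion receptor Cd2 were among the 14 brightest members in both arrays, while Cd4 ranked 27 of 49 in fl/wt and 28 in fl/fl. Cd3d and Cd3g, which encode the delta and gamma chains of CD3, read 14.23 and 14.15 in fl/wt and 14.25 and 14.14 in fl/fl. Cd3e, the epsilon chain, read 13.31 (fl/wt) and 13.40 (fl/fl), differing by 0.088. Of measured genes, 31.1% were at least as far apart. Cd247, the zeta chain that carries most of the receptor's phosphorylation sites, read 13.13 and 13.17. Cd4, which binds MHC class II, read 12.27 and 12.21, and Cd2 read 14.94 and 14.87. The 6 genes split evenly, 3 higher and 3 lower, with a median difference of 0.0065 and a range of -0.073 to 0.088 (52.5% of all measured genes were lower). Of the CD3 and zeta chains only Cd3g was lower, by a difference near 0 (-0.0092) that was 0.00099 with each array centred on the median of measured genes. The second measured probe set of Cd247, at 9.29 in fl/wt, differed by -0.16, opposite to its brightest. A second, dim probe set of Cd4 read 5.21 in fl/wt and was under log2 5 in fl/fl (4.59).

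Of the 4 proximal kinases 3 had a value. Zap70, the kinase that docks on the phosphorylated CD3 and zeta chains, read 13.18 (fl/wt) and 13.16 (fl/fl), differing by -0.025. Fyn, a Src family kinase related to Lck, read 12.78 in both arrays, and its difference of -0.0031 was smaller than that of 96.9% of measured genes. Txk, a Tec family kinase of resting T cells also called Rlk, was far dimmer, at 9.21 (fl/wt) and 9.05 (fl/fl). Its difference of -0.16 was the third largest in size among the members, and 13.7% of all measured genes were at least as far apart. Txk had no other probe set above log2 5 to set beside it. The second probe set of Fyn differed by 0.028 and the dimmer ones of Zap70 by 0.0062 and 0.010, opposite to their brightest. With centred arrays the brightest Fyn probe set differed by 0.0071.

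The adaptors spanned the widest range of levels. Lat, the membrane scaffold, read 14.32 (fl/wt) and 14.33 (fl/fl), and Lcp2, which encodes the adaptor SLP-76, read 13.28 and 13.29. Next came Grb2, which links Lat to the Ras exchange factor Sos1, at 12.45 and 12.43, and Was, which drives actin branching, at 12.25 and 12.24. Sh2d2a, an adaptor that binds Lck, read 11.95 and 11.88, and Vav1, a guanine nucleotide exchange factor, 11.38 in both. Themis, an adaptor of developing T cells, read 9.87 and 9.88. Sos1 read 9.59 and 9.68, a difference of 0.091 that was the largest on the higher side among all members. The median difference over this role was -0.011, with 5 genes higher in fl/fl and 6 lower, where 52.5% of all measured genes were lower.

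Grap2 had the largest difference of any member, and its probe sets were in conflict. Grap2 encodes Gads, the adaptor that joins SLP-76 to Lat. Its brightest probe set read 7.46 (fl/wt) and 7.14 (fl/fl), differing by -0.32, a size that 3.25% of measured genes equalled or passed. Its other probe set, at nearly the same mean level, read 7.06 (fl/wt) and 7.25 (fl/fl), so it differed by 0.18 in the opposite direction. As the median of both probe sets the difference was -0.066. At a mean level of 7.30 it was also the dimmest member, and 56.7% of the genes with a mean level from 5 to under 8 differed by at least 0.1.

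Nck1 and its paralog Nck2, adaptors that tie the receptor to the actin cytoskeleton, were both lower in fl/fl in every probe set above log2 5. Nck1 read 10.76 (fl/wt) and 10.59 (fl/fl), differing by -0.17, and 12.3% of measured genes were at least as far apart. Its further probe sets, at 8.55 and 6.81 in fl/wt, had differences of -0.083 and -0.24. Nck2 read 9.89 and 9.84, a difference of -0.050, and its second probe set differed by -0.082. Of the 32 members with several measured probe sets, Nck1 was the only one with a brightest probe set past 0.1 whose probe sets all had the same direction.

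**Figure D2:**
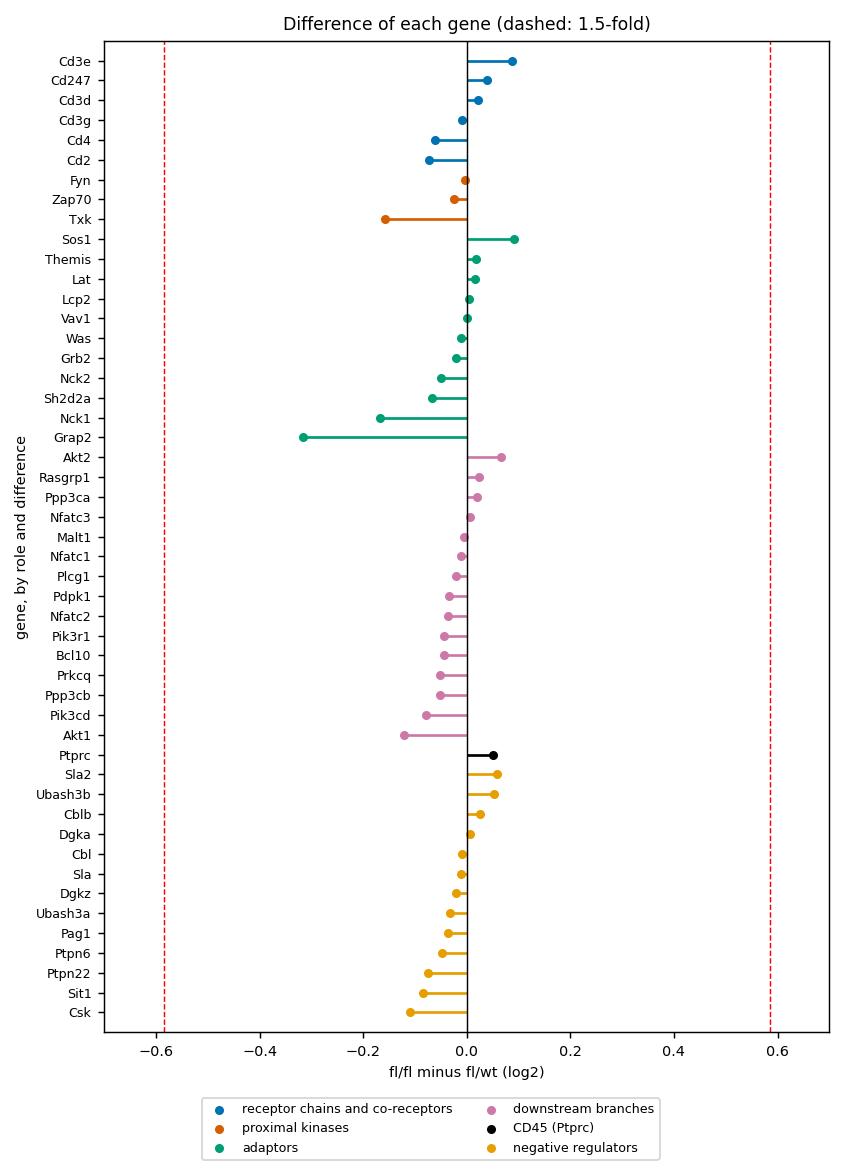
The x axis is the fl/fl minus fl/wt difference on the log2 scale and each line is a gene, grouped by role and ordered by difference; dashed lines mark 1.5-fold. All 49 genes lie between -0.32 and 0.091, inside the dashed lines, and Grap2 (-0.32) is the only one past 0.25, a size that 5.79% of measured genes reached.

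Downstream of the adaptors, 15 genes were measured, 4 higher and 11 lower in fl/fl, with a median difference of -0.034 and a range of -0.12 to 0.066. Of all measured genes 52.5% were lower, with a median of -0.0045. Plcg1, the phospholipase C gamma 1 that splits membrane phosphoinositides, read 13.13 (fl/wt) and 13.11 (fl/fl). Rasgrp1, the diacylglycerol-activated exchange factor for Ras, read 13.24 and 13.26. On the route to NF-kappaB, Prkcq, which encodes protein kinase C theta, read 13.61 and 13.55, Bcl10 read 12.50 and 12.46, and the paracaspase Malt1, the partner of Bcl10, 10.22 and 10.21. Their differences were -0.052, -0.044 and -0.0062. For Bcl10, 2 of the 3 other probe sets were higher (0.054 and 0.026). Without probe sets of shared suffix (_a_at, _s_at or _x_at) its difference was 0.026. Being left out in that setting does not show that a probe set reads another gene. The second probe set of Malt1 differed by 0.091, and its brightest by 0.0040 with centred arrays and 0.0017 after loess.

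The calcium route showed no common direction. The calcineurin catalytic subunits Ppp3ca and Ppp3cb read 9.84 and 12.13 in fl/wt and 9.86 and 12.08 in fl/fl, differences of 0.021 and -0.053. Among the NFAT factors that calcineurin dephosphorylates, Nfatc1 differed by -0.011 (12.12 in fl/wt), Nfatc2 by -0.036 (11.50) and Nfatc3 by 0.0058 (12.99). Nfatc1 was read by 5 probe sets above log2 5, which differed by -0.095 to 0.0082. Ppp3cb was read by 4, from -0.053 to 0.22.

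In the phosphoinositide 3-kinase branch, 4 of 5 genes were lower in fl/fl, where 52.5% of all measured genes were. Pik3cd, the p110 delta catalytic subunit, read 11.63 (fl/wt) and 11.55 (fl/fl), differing by -0.079, and Pik3r1, the p85 alpha regulatory subunit, 11.51 and 11.47. Pdpk1, the kinase that activates Akt, read 12.19 and 12.16, and its second probe set differed by 0.17 in the opposite direction. Akt1 read 12.77 and 12.65, a difference of -0.12, while its paralog Akt2 read 11.14 and 11.20, a difference of 0.066. Akt1 was bright for a difference of that size: of the genes with a mean level from 12 to under 14, 5.69% differed by at least 0.1. The other measured Akt1 probe sets differed by -0.034 and 0.025, at 7.32 and 5.67 in fl/wt. Among member probe sets above log2 5 in both arrays only 1 passed 1.5-fold, a dimmer Pik3cd probe set. Its suffix (_s_at) marks shared probes, and it read 7.74 (fl/wt) and 7.15 (fl/fl), differing by -0.59. A further Pik3cd probe set at 6.44 differed by 0.31 in the opposite direction.

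Ptprc, which encodes the phosphatase CD45, was set apart from the other roles, since it activates Lck by removing an inhibitory phosphate and also dephosphorylates its activating site. It was the brightest member, at 15.05 (fl/wt) and 15.10 (fl/fl), differing by 0.051. Its second probe set, at 11.25 in fl/wt, differed by -0.0086.

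By median, the negative regulators read above the downstream genes and near the proximal kinases, though the roles overlapped. Their median was 12.72 (fl/wt) and 12.68 (fl/fl), against 12.13 and 12.11 for the downstream branches and 11.38 in both arrays for the adaptors. The median of the 3 measured kinases was 12.78 in both arrays, which is the value of Fyn, with Txk far dimmer. The median of the receptor chains and co-receptors was 13.7 (fl/wt) and 13.8 (fl/fl). The interquartile range of mean levels was 11.29 to 13.07 for negative regulators and 11.49 to 12.85 for downstream genes. The diacylglycerol kinases Dgkz and Dgka, which remove the messenger that Rasgrp1 and protein kinase C theta need, read 14.50 and 13.98 in fl/wt and differed by -0.021 and 0.0067. Sla, the Src-like adaptor that lowers receptor levels at the surface, read 13.77 and 13.76, and its paralog Sla2 was dimmer, at 9.22 and 9.27. Cblb and Cbl, ubiquitin ligases that target the activated cascade, read 13.06 and 12.36 in fl/wt and had differences of 0.026 and -0.0083.

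Among the other negative regulators, Csk had the largest difference. Csk, the kinase that places the inhibitory phosphate on Lck, read 12.79 (fl/wt) and 12.68 (fl/fl), differing by -0.11 from its single measured probe set. Pag1, the membrane anchor of Csk, differed by -0.036 (12.72 in fl/wt) and its second probe set by 0.11, and Ptpn22, a phosphatase that works with Csk, by -0.075 (12.64). Ptpn6, which encodes the phosphatase SHP-1, differed by -0.047 (12.73), and Sit1, a membrane adaptor that recruits inhibitory partners, by -0.085 (11.30). Ubash3a and Ubash3b, phosphatase-family proteins that restrain Zap70, read 10.26 and 11.27 in fl/wt, with differences of -0.032 and 0.053. In all, 4 of the 13 negative regulators were higher and 9 lower, with a median difference of -0.021 and a range of -0.11 to 0.058. Of all measured genes 52.5% were lower. The median differences of the other roles were 0.0065 (receptor chains), -0.025 (kinases), -0.011 (adaptors) and -0.034 (downstream branches). Each covered genes of both signs except the 3 kinases, all lower by their brightest probe sets. The other measured probe sets of Fyn and Zap70 were higher.

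Signs within paralog families depended on the probe sets read. By the brightest probe set, in the pairs Akt1 and Akt2, Cbl and Cblb, Sla and Sla2, Ubash3a and Ubash3b, Dgka and Dgkz, and Ppp3ca and Ppp3cb, one member was higher and the other lower in fl/fl. Nck1 and Nck2 were both lower, and of the NFAT factors 1 was higher and 2 were lower. Apart from Nck1 and Akt1, every member of these families differed by less than 0.1, and some by about 0.01 or less in size, such as Cbl (-0.0083) and Dgka (0.0067). As the median of probe sets, Akt1 and Akt2 (-0.0047 and -0.056) and Ubash3a and Ubash3b (-0.034 and -0.047) were both lower. On that reading Cbl and Cblb (0.047 and 0.0012) and Sla and Sla2 (0.031 and 0.11) were both higher.

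More members were lower than higher in fl/fl, by small amounts. Of 49, 17 were higher (34.7%) and 32 lower (65.3%), while 47.5% of all measured genes were higher and 52.5% lower. The median difference was -0.021 for members and -0.0045 for all genes. The split depended in part on scaling: with each array centred on the median of measured genes, 57.1% of members were lower against 46.8% of all genes above log2 5 in both arrays. The 52 measured probe sets of these genes that were not the brightest leaned less, with 24 higher and 28 lower (53.8%). Members shared RNA and array, so they are not separate observations of a shift.

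The size of differences went with level. Only 5 of 49 members (10.2%) differed by at least 0.1, against 26.8% of all measured genes, and 30 members differed by less than 0.05, against 47.9% of genes. Within bands of level the members were closer to the other genes. From 12 to under 14, where 25 members lie, 2 differed by at least 0.1 against 5.69% of genes, and the median size of difference was 0.026 for members and 0.030 for the 1687 genes. From 10 to under 12, 1 of 11 members did so against 15% of genes, and the median sizes were 0.053 and 0.045. From 8 to under 10, 1 of 6 members did so against 36.7% of genes. At 14 and above none of 6 did, against 0.804% of genes.

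**Figure D3:**
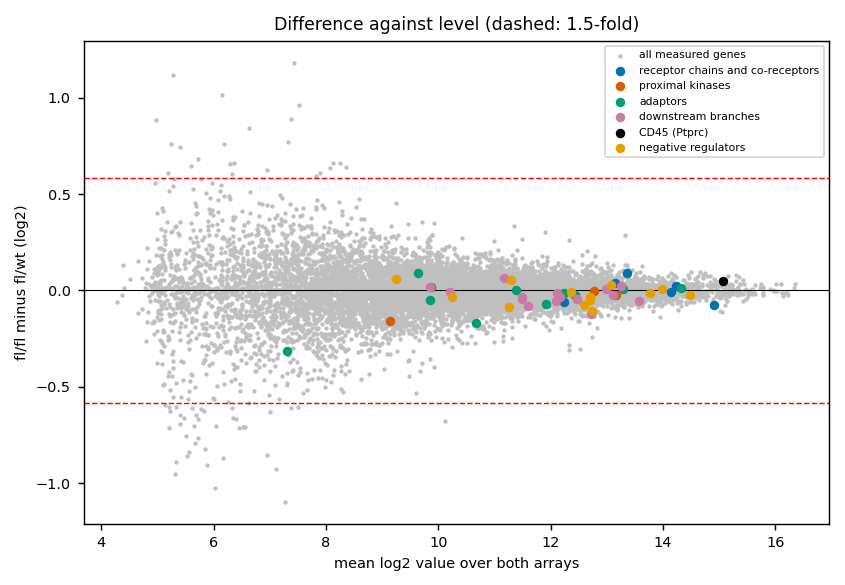
The x axis is the mean log2 value over both arrays and the y axis the fl/fl minus fl/wt difference; grey points are the 9773 measured genes, coloured points the 49 cascade genes by role, and dashed lines 1.5-fold. The grey cloud narrows from left to right and the coloured points sit in its narrow part, with Grap2, at a mean level of 7.30, the only one under 8.

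Probe sets that read the same member often did not share a direction. Of the 32 members with at least 2 probe sets above log2 5 in both arrays, 24 had probe sets of both signs and 8 had a single sign. The same count over all genes is not given here, so it describes these members only. The SD between differences of probe sets of the same member was 0.14, and within genes over the whole array it was also 0.14. The SD over the 49 members' own values, read from their brightest probe sets, was 0.070. Of the 52 probe sets that were not the brightest of their gene, 18 differed by at least 0.1 (34.6%), and their median mean level was 8.76. Among all genes with a mean level from 8 to under 10, 36.7% differed by that much. Sla shows the pattern: its brightest probe set (13.77 in fl/wt) differed by -0.011, while those at 10.44, 10.28 and 7.61 differed by 0.14, -0.082 and -0.46. For Pik3r1, the probe sets at 11.51, 10.48 and 7.43 in fl/wt differed by -0.044, -0.27 and 0.16.

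**Figure D4:**
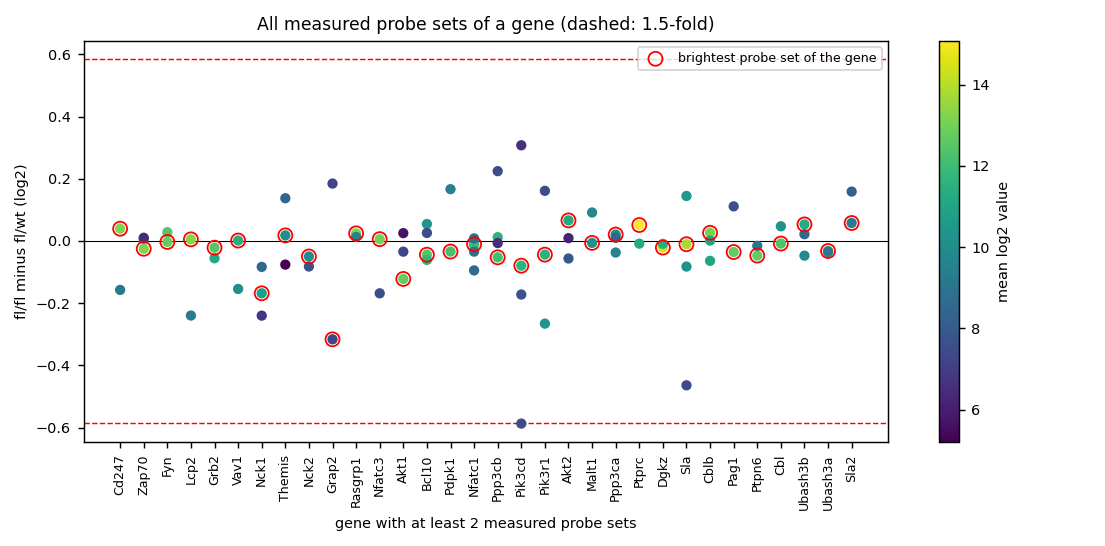
Each column is one of the 32 genes with at least 2 measured probe sets, the y axis is the fl/fl minus fl/wt difference on the log2 scale, colour is the mean log2 value, a red ring marks the brightest probe set and dashed lines mark 1.5-fold. The widest column is Pik3cd (-0.59 to 0.31), and the points far from 0 are mostly the dimmer ones.

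Genes of the same pathway outside the 50 also differed by small amounts. Of 50 further pathway genes, 39 had a named probe set and all 39 were measured; 18 read higher in fl/fl and 21 lower, their median difference was -0.0035, and none reached 1.5-fold, which 0.645% of all measured genes did. By at least 0.1, 2 of 39 were higher and 4 lower, against 12.6% and 14.2% of all measured genes. Their median mean level was 11.71, against 10.18 for all measured genes, so that share is not matched for level. The largest differences were those of Dok1, an adaptor that restrains Ras (9.15 (fl/wt) and 8.95 (fl/fl), -0.20), the kinase JNK1 gene Mapk8 (-0.13), the calcium channel Itpr2 (0.13) and the calcineurin regulatory subunit Ppp3r1 (-0.12). Other probe sets of Mapk8 (0.078 and 0.082) and Ppp3r1 (0.19) went the opposite way, while those of Itpr2 differed by -0.0049, 0.27 and 0.0035. Cd28, the main costimulatory receptor, read 13.54 in both arrays, and Cd5, an inhibitory receptor whose level follows receptor signal strength, read 14.28 and 14.31.

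Transcripts known to rise when the receptor is engaged were also read, though without a stimulated or unstimulated reference their levels do not measure the cascade's output. All 18 listed were measured, 8 of them higher in fl/fl and 10 lower, and their median difference was -0.0043. Their median mean level was 12.40, near the 12.44 of the cascade members, so a high level was not particular to the members. By at least 0.1, 2 were higher and 2 lower, against 12.6% and 14.2% of all measured genes. None reached 1.5-fold, which at a background of 0.645% says little about 18 genes. Nr4a1, the nuclear receptor Nur77 used as a reporter of receptor signalling, read 12.86 in both arrays, a difference of -0.0034. Nr4a3 differed by 0.0015, the phosphatase gene Dusp2 by 0.0022 and Egr2 by -0.0052, while Egr1 read 13.12 and 13.19. The early activation antigen Cd69 had the largest difference, at 12.19 (fl/wt) and 12.45 (fl/fl) (0.26), from a single measured probe set. Of all measured genes, 5.29% were at least as far apart. Cd69 was bright for a difference of that size: of the genes with a mean level from 12 to under 14, 5.69% differed by at least 0.1. Next were the NF-kappaB subunit Rel (7.94 and 8.08, 0.14), Dusp5 (-0.10) and the IL-2 receptor chain Il2ra (13.45 and 13.35, -0.10). Some of these genes also respond to cytokines or to cell handling, and Il2ra and Tnfrsf18 were also on the list of 7 Treg and CD4 T cell markers.

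**Figure D5:**
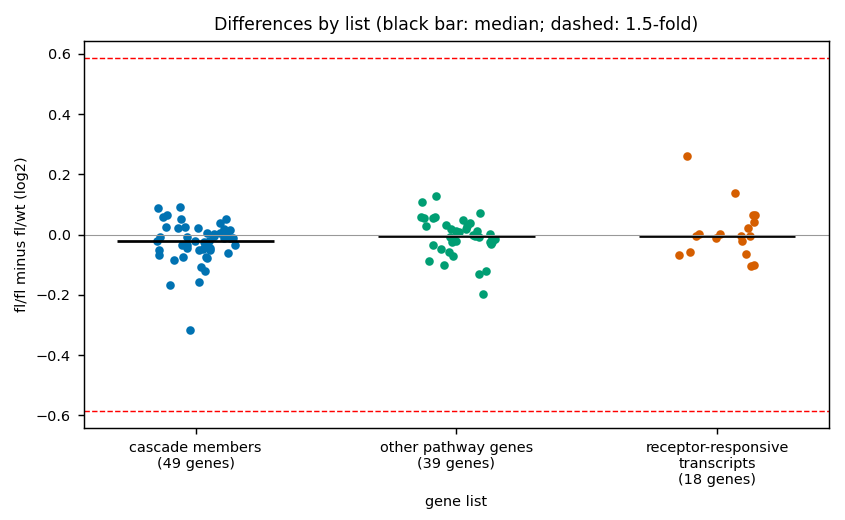
The y axis is the fl/fl minus fl/wt difference on the log2 scale for the 49 cascade members, 39 other pathway genes and 18 receptor-responsive transcripts; each point is a gene, spread sideways for display only, the black bar is the median and dashed lines mark 1.5-fold. The medians lie at -0.021, -0.0035 and -0.0043, and no gene reaches 1.5-fold.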

How the data were processed

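Total RNA of sorted Treg was biotin-labelled as cRNA and measured on Affymetrix arrays, as the labels' protocols state. The table that the authors deposited gives a log2 value for each of 45101 probe sets on each of 2 arrays; the median value was 3.47 on the fl/wt array and 3.50 on the fl/fl array, and the log2 scale was read from the values. The submitters' processing notes give GCRMA as the method behind these deposited values. It estimates background from probe sequence and puts arrays on a shared distribution; its version, its settings and which arrays were normalised together are not stated there, and values before normalisation were not used. Dim values crowd together under this method, hence the floor: a gene under log2 5 in both arrays was left out, and a value under 5 in 1 array was set to 5. Gene names came from the platform annotation (34958 probe sets with 1 symbol, 932 with several, 9211 with none here), and control probe sets were left out. All 49 members with a probe set matched a RefSeq gene by Entrez identifier, with no symbol changed. No build is named for the values; promoter coordinates are those of RefSeq's GRCm38.p6 table.

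The members, role groups and lists were chosen with earlier results of these data known. All members could be named; of the other pathway genes and the receptor-responsive transcripts, the 4 with the largest absolute difference in each and any past 1.5-fold. Other members of those lists, and single probe sets, were named after their values were seen. With 1 array per genotype there are no p-values, SEs or adjusted p; the number of arrays limits the precision. A further 9 processing alternatives and other thresholds were run. Calculations used Python 3.11.15, numpy 2.4.6, pandas 2.3.3 and statsmodels 0.14.6, and were tested on simulated data.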

Additional observations from a re-analysis of the deposited data

How the results depend on the processing

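No paired analysis was possible because each genotype has a single array, and for the same reason no replicate could be left out. No member reached 1.5-fold under any of the 9 alternatives, a size that 0.645% of all measured genes reached in the main setting. The counts of members at least 0.1 higher and lower (0 and 5) were 2 and 6 as the median of probe sets. They were 1 and 4 with each array centred on the median of measured genes, and 0 and 4 without probe sets of shared suffix. The genes counted changed too. As the median of probe sets, Grap2 (-0.066), Nck1 (-0.083) and Akt1 (-0.0047) fell under 0.1 in size, while Cd4, Lcp2, Rasgrp1 and Pik3cd were lower by at least 0.1. Without shared suffixes, a setting that drops the brightest Nck1 probe set for its _a_at suffix, Nck1 was again -0.083. At 0.25 the lower count was 1, by construction. The median difference of adaptors was -0.067 as the median of probe sets (10 genes); the cause was not tested. The median over all members ran from -0.034 to -0.011. It was negative throughout for downstream branches (-0.037 to -0.022), negative regulators (-0.022 to -0.011) and adaptors. It took both signs for kinases (-0.027 to 0.0062), receptor chains (-0.024 to 0.017), other pathway genes (-0.0079 to 0.0067) and responsive transcripts (-0.0060 to 0.0059). From 28 to 32 members were lower and 15 to 21 higher. Of 434 member values 27 changed sign, 16 of them as the median of probe sets, and 4 moved by over 0.14 (the SD of differences within genes read by several probe sets): Cd4 (-0.34), Grap2 (-0.066) and Ppp3cb (0.22) as the median of probe sets, and Vav1 (-0.15) without probe sets of shared suffix. Reading several probe sets takes in values under log2 5, such as the second probe set of Cd4 (4.59 in fl/fl), before the floor is applied to the median. No scaling moved the median of all genes by as much as 0.1. As the median of probe sets 3 members, and without shared suffixes 4 members, had no value. Dim probe sets limit what can be read: differences of 0.1 are common under log2 8.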
